A study of Mus musculus with 4 samples.

Results

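The receptors of the EGF receptor family and their ligands were followed across the cell types of castrated mouse prostate tumours. The 10 genes were chosen by symbol from the 32285 genes of the count tables, and comprised 7 ligand genes (Areg, Ereg, Hbegf, Tgfa, Egf, Btc and Nrg1) and 3 receptor genes (Egfr, Erbb2 and Erbb3). Molecules of each gene, counted as unique molecular identifiers (UMIs), were summed per mouse and per cell class, and the classes were named from marker genes. There were 4 mice with 1 tumour each, dissociated whole and sequenced cell by cell by 3' droplet RNA-seq. The PCSp mice (n = 2) were Chd1L/L and carried SpopF133V, PB-Cre and mTmG, and the PSp mice (n = 2) carried SpopF133V, PB-Cre and mTmG. The mutant SpopF133V transgene, the mTmG fluorescent reporter and the PB-Cre driver were thus shared by all 4 mice, and floxed Chd1, a gene for a chromatin remodeller, was carried by the PCSp mice alone. PB-Cre uses the probasin promoter, which is active in prostate epithelium, so immune and stromal cells of these mice are not the cells in which the driver acts. Castration was done at 9 months in every mouse, and tumours were taken 1 month afterwards. The labels name separate mice and give no litter, batch or pairing, so p-values measure the spread between these 4 mice.

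The EGF receptor and its relatives are receptor tyrosine kinases that act as pairs. Egfr binds amphiregulin (Areg), epiregulin (Ereg), heparin-binding EGF-like growth factor (Hbegf), transforming growth factor alpha (Tgfa), EGF (Egf) and betacellulin (Btc). Neuregulin 1 (Nrg1) binds Erbb3, a receptor with little kinase activity of its own, and Erbb2 has no known ligand and serves as the preferred partner of the others. The ligands are made as membrane-anchored precursors and are released by metalloproteases such as Adam17. In the prostate, Egf is known as a product of secretory luminal cells, and signals from these receptors feed the ERK and PI3K pathways.

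Cell classes were named from marker genes and each name stands for cells like that type. The libraries held 9656 and 9600 barcodes in PCSp mice, against 6539 and 7266 in PSp mice, with 66874620 to 90839725 UMIs per library. After filtering, 7708 and 7883 cells were kept in PCSp mice, against 5211 and 5900 in PSp mice. Of these, 3575 and 3349 were epithelial-like in PCSp mice, against 2743 and 2989 in PSp mice. Their median depth was 9759 and 8155 UMIs in PCSp mice and 11110 and 14046 in PSp mice, so epithelial cells of PCSp mice were more shallowly sampled. All levels below are CPM values, the UMIs of a gene scaled to the same total of UMIs in every sum of cells. Deep cells weigh more in such a sum than shallow ones. Any pair of libraries shared 11 to 27 cell barcodes. Chd1 itself was measured at 60.1 and 56.4 CPM in epithelial-like cells of PCSp mice, against 91.5 and 77.9 CPM in those of PSp mice. Chd1 was lower in both PCSp mice, without overlap, and was not absent. The 3' tags need not fall in the deleted part of the gene, so this level does not measure the deletion.

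Areg, a ligand known from wound repair and tissue remodelling, was found in both the tumour epithelium and immune cells. Epithelial-like cells held it at 190.5 and 244.3 CPM in PCSp mice, against 192.5 and 162.8 CPM in PSp mice. T and NK cells held 154.1 and 123.6 CPM in PCSp mice, against 169.9 and 101.6 CPM in PSp mice. The mean was 197.5 ± 34.0 CPM in epithelium and 137 ± 30.6 CPM in T and NK cells (SD, n = 4 mice), and epithelium was the higher within each of the 4 mice, although the ranges overlapped between mice. Among the tested classes, macrophages and monocytes followed without overlap, at 37.7 and 41.0 CPM in PCSp mice and 13.1 and 10.6 CPM in PSp mice. Neutrophils (6.21 to 16.2 CPM), fibroblasts (3.41 to 8.94 CPM) and endothelial cells (0.857 to 4.26 CPM) were lower still. Thinned to 1000 UMIs per cell, 12.2% and 10.0% of the untested unnamed cells had an Areg UMI in PCSp mice. In PSp mice 12.2% and 0% had one, and these shares rested on only 19 to 49 cells per mouse. The thinned shares of epithelial-like cells were 7.73% to 10.1%. Because epithelial cells are many and deep, they held 95.6% to 97.9% of the Areg UMIs of each library. As a measure of stray epithelial RNA, the highest ratio of the 3 most abundant epithelial markers in a class to their level in epithelium was multiplied by the epithelial level of the gene. The level in T and NK cells was 15.9 to 31.1 times this amount, whereas the levels in endothelial cells and neutrophils were below it in all 4 mice.

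Areg lies on mouse chromosome 5 (GRCm38, chr5:91139599-91148432, plus strand), in a row with other ligand genes of the family. Ereg lies 46.0 kb before it and Epgn, for epigen, a further 39.4 kb before Ereg. Btc lies 209 kb beyond Areg on the minus strand (chr5:91357261-91402994). The 250 bases before the annotated starts of Areg (chr5:91139349-91139598) and Btc (chr5:91402995-91403244, read on the minus strand) are shown, from RefSeq on GRCm38.p6, because these neighbours had different patterns over the cells described below. Each is written 5′ to 3′ in lower case, and capitals mark matches to the searched motifs.
Areg: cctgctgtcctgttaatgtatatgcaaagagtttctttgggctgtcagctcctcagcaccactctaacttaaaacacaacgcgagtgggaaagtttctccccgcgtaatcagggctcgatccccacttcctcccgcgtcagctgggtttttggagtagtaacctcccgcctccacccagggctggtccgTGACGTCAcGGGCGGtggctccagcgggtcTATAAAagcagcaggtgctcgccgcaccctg
Btc: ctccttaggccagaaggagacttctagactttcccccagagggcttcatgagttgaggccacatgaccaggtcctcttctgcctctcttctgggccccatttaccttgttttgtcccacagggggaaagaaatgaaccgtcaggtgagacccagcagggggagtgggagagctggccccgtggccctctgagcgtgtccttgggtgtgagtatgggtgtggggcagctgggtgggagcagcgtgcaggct

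Both strands were searched for the cAMP response element, written TGACGTCA. The GC box was read as GGGCGG on either strand. The TATA box was read as TATAAA, and the fourth motif was CCAAT. Matches did not overlap in these sequences. The Areg window held TGACGTCA from 61 to 54 bases upstream of the start, GGGCGG from 52 to 47 and TATAAA from 31 to 26. The Btc window held none of the 4 motifs. Of the 32851 promoter windows in the table, 1.55% held TGACGTCA, 32.7% GGGCGG, 12.4% TATAAA and 33.8% CCAAT, and 11 windows held the first 3 together. Of the 10 members, 6 had a promoter in the table. These matches describe letters in the window, and binding was not measured.

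Within the epithelium, Areg was low in the basal-like cells of highest Krt14 and lower still in luminal-like cells. Orders are given over the 7 large, deeply sampled sub-clusters (3, 4, 5, 9, 10, 11 and 12), those of at least 200 cells and a median above 10000 UMIs. Sub-cluster 9, basal-like cells led by Krt14 and Fst, held 62.0 and 75.4 CPM in PCSp mice and 38.3 and 71.9 CPM in PSp mice. Sub-cluster 4, basal-like cells led by Lgals7, Krt5, Krt16 and Krt13, held 297.6 and 348.1 CPM in PCSp mice and 207.5 and 250.5 CPM in PSp mice. Thus, of sub-clusters 4 and 9, the one led by Krt16 and Krt13 had the higher Areg in each mouse. Luminal progenitor-like sub-cluster 5, led by Arl14, Upk1b and Mmp7, was at 294.2 and 308.1 CPM in PCSp mice and 281.0 and 223.7 CPM in PSp mice. Luminal-like sub-cluster 10, led by Gm7714, Spink5 and Piezo2, was at 7.74 and 11.7 CPM in PCSp mice and 4.36 and 26.7 CPM in PSp mice, the lowest of the 7 in every mouse. The highest mean, 285.5 ± 80.1 CPM (SD, n = 4), was in sub-cluster 11, a group of cells led by Reg1, Reg3b and Lgals4 that met no named marker set, and it overlapped the values of sub-clusters 5 and 4. In the small sub-cluster 14, led by Psca and Upk1a, PSp mouse 1 stood apart at 1065 CPM in 25 cells, against 297.9 and 396.2 CPM in PCSp mice and 274.8 CPM in PSp mouse 2.

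**Figure D1:**
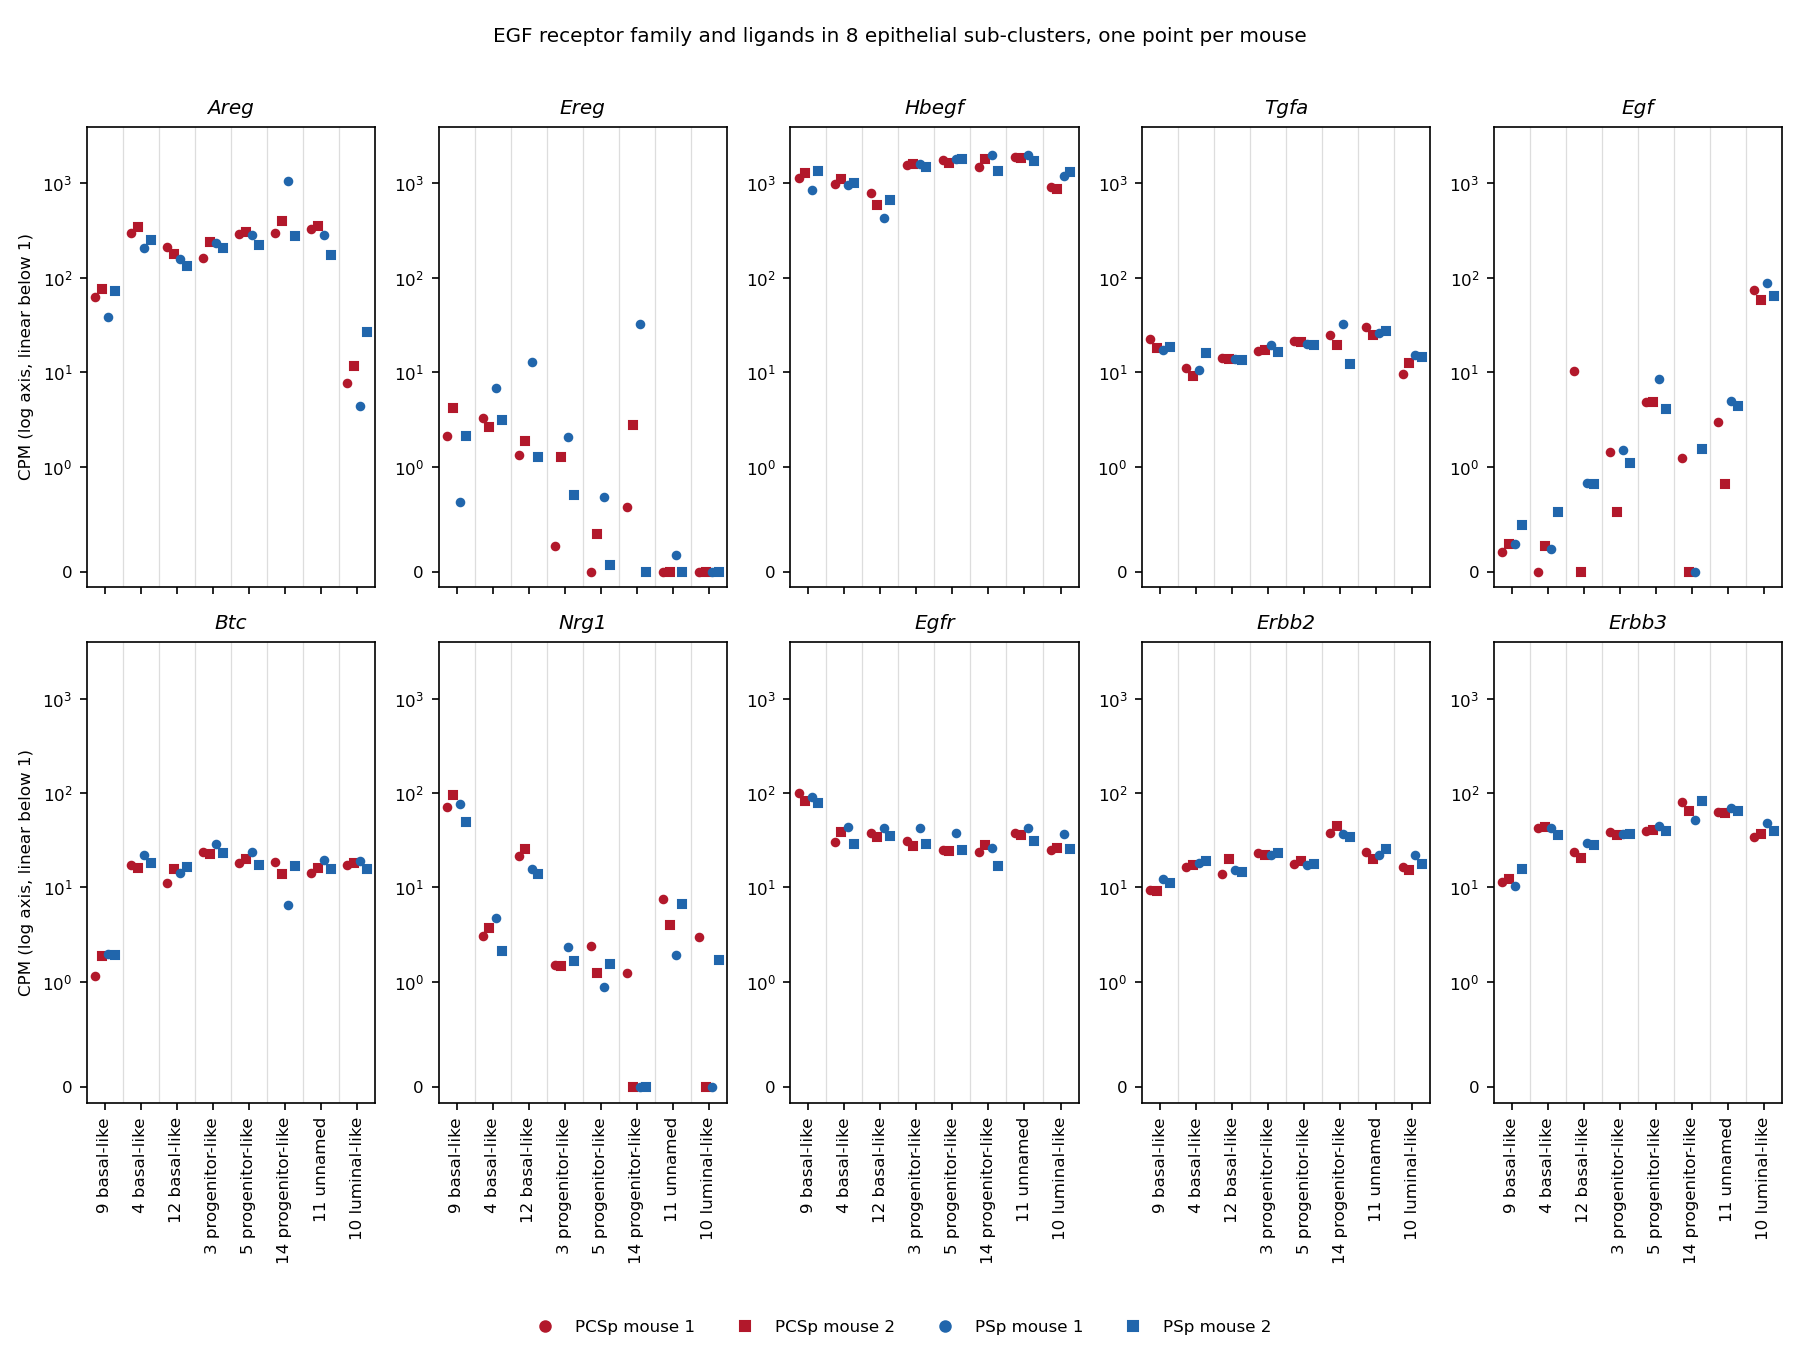
Level of each member in 8 epithelial sub-clusters, in CPM on a log axis that is linear below 1, with 1 point per mouse (PCSp mice red, PSp mice blue). Of the 8 shown, Egf is highest in luminal-like sub-cluster 10, Nrg1 is highest and Btc lowest in basal-like sub-cluster 9, in all 4 mice.

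Hbegf, a ligand with a heparin-binding stretch that keeps it near the cell surface, was an epithelial transcript. Epithelial-like cells held 1325 and 1375 CPM in PCSp mice, against 1251 and 1398 CPM in PSp mice, and no other class reached these values. Thinned to 1000 UMIs per cell, 50.5% (95% Clopper-Pearson interval 48.8 to 52.3) and 53.1% (51.4 to 54.9) of epithelial-like cells had an Hbegf UMI in PCSp mice, against 49.5% (47.5 to 51.5) and 53.0% (51.1 to 54.9) in PSp mice. Intervals given here cover counting error only. Without thinning the shares were 76.4% and 73.6% in PCSp mice, against 75.7% and 77.9% in PSp mice. In neutrophils, whose Hbegf level was 0.500 to 0.673 times what epithelial RNA could leave, the thinned shares were 5.82% and 6.35% in PCSp mice and 3.77% and 4.07% in PSp mice. T and NK cells had shares of 3.62% and 6.57% in PCSp mice and 2.20% and 3.26% in PSp mice. The part of stray RNA in these shares was not tested. Among the other tested classes, endothelial cells were the clearest source, with 278 and 273 CPM in PCSp mice. In PSp mice they held 265 and 185 CPM, and all 4 levels were 4.24 to 7.74 times the epithelial amount. Their thinned shares were 11.3% to 18.5%. Within each mouse the shares were higher in 2 small untested classes, glial cells (18.2% to 43.8%, 9 to 22 cells) and unnamed cells (15.8% to 43.9%, 19 to 49 cells). Smooth muscle and pericytes were at 11.8% to 18.4%. In the epithelium, Hbegf was lowest in sub-cluster 12, basal-like cells led by the cycling genes Mki67 and Top2a, at 428.2 to 792.9 CPM over the 4 mice. It was highest in sub-clusters 11 (1733 to 1996 CPM) and 5 (1660 to 1824 CPM), which overlapped, and sub-cluster 3 (1500 to 1611 CPM) lay below both.

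Egf and Btc divided the luminal and basal cells in different ways. Egf, the founding ligand of the family, was at 74.5 and 58.4 CPM in luminal-like sub-cluster 10 in PCSp mice and at 88.7 and 63.5 CPM in PSp mice. No other sub-cluster of at least 200 cells exceeded 23.5 CPM in any mouse. Sub-cluster 10 held 119 and 41 cells in PCSp mice and 33 and 167 cells in PSp mice. In the clustering of all cells, the small epithelial cluster 9, which is not sub-cluster 9, held 13 to 29 cells per mouse. Egf there was at 4.32 and 28.1 CPM in PCSp mice and 53.1 and 21.5 CPM in PSp mice, from 3 to 17 UMIs per mouse. The level of Egf over all epithelial-like cells was 8.10 and 3.38 CPM in PCSp mice and 4.60 and 9.72 CPM in PSp mice, and the part of the cell number in it was not tested. Btc, whose product binds Egfr and Erbb4, was at 24.0 and 22.4 CPM in sub-cluster 3 of PCSp mice and at 28.8 and 23.1 CPM in that of PSp mice. Sub-cluster 3 carried luminal progenitor markers and was led by interferon and acute-phase genes (Rsad2, Hp, C3 and Ltf). Basal-like sub-cluster 9 held Btc at 1.15 and 1.87 CPM in PCSp mice and 1.98 and 1.94 CPM in PSp mice, below sub-cluster 4 (16.1 to 22.2 CPM) in every mouse. Areg and Btc thus shared their low level in sub-cluster 9 and differed in luminal-like sub-cluster 10, where Btc was at 15.7 to 18.9 CPM.

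Tgfa, the ligand most like Egf in its receptor use, was spread over the whole epithelium. It was at 30.2 and 24.8 CPM in sub-cluster 11 of PCSp mice and at 26.0 and 27.4 CPM in that of PSp mice, above the other 6 large sub-clusters, of which sub-cluster 5 came next at 19.6 to 21.3 CPM. Outside the epithelium, endothelial cluster 0 held Tgfa at 8.67 and 7.68 CPM in PCSp mice and 14.1 and 9.44 CPM in PSp mice. These levels rested on 6 to 16 UMIs per mouse. Ereg was detected in few UMIs. It was at 0.957 and 1.63 CPM in epithelial-like cells of PCSp mice and at 3.47 and 0.794 CPM in those of PSp mice, from 59 and 72 UMIs in PCSp mice and 193 and 50 UMIs in PSp mice. PSp mouse 1 was the high one, and 93 of its 193 UMIs came from basal-like sub-cluster 4. Macrophages and monocytes, T and NK cells and endothelial cells had no Ereg UMI in any mouse.

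Within the epithelium, Nrg1, the ligand of Erbb3 in this set, was highest in a group of basal-like cells. Sub-cluster 9 held 71.4 and 94.7 CPM in PCSp mice, against 76.7 and 48.9 CPM in PSp mice. The cycling basal-like sub-cluster 12 followed at 21.8 and 25.6 CPM in PCSp mice and 15.7 and 13.8 CPM in PSp mice. Sub-cluster 4, which shares Krt5 with sub-cluster 9, held only 2.12 to 4.77 CPM, and sub-clusters 3 and 5 held 0.947 to 2.41 CPM. Fibroblasts expressed Nrg1 at 7.86 and 10.8 CPM in PCSp mice and 8.03 and 6.43 CPM in PSp mice, 14.8 to 37.8 times what epithelial RNA could leave. Among them, cluster 8 held 28.5 and 24.6 CPM in PCSp mice and 25.5 and 36.9 CPM in PSp mice, from 15 to 44 UMIs per mouse. Fibroblast clusters 6 and 20 held 0 to 6.94 CPM, and cluster 7 had no Nrg1 UMI in any mouse.

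Among the receptors, Egfr was highest in fibroblasts, at 74.6 and 74.2 CPM in PCSp mice and 92.0 and 71.2 CPM in PSp mice. Epithelial-like cells, at 41.7 and 41.9 CPM in PCSp mice and 48.8 and 33.2 CPM in PSp mice, were lower in every mouse. Fibroblast clusters 7 (131 to 271 CPM) and 6 (89.9 to 103 CPM) were above the epithelium. Fibroblast clusters 8 (36.9 to 50.9 CPM) and 20 (18.4 to 49.6 CPM) overlapped it. In the epithelium, basal-like sub-cluster 9 held 99.0 and 83.0 CPM in PCSp mice and 90.5 and 78.1 CPM in PSp mice, above the 24.5 to 43.3 CPM of sub-clusters 3, 4, 5, 11 and 12. Basal-like sub-cluster 9 was thus high in Egfr and Nrg1 and low in Areg and Btc. Sub-cluster 7, also basal-like, was at 95.6 to 148.4 CPM of Egfr, from 33 to 57 UMIs per mouse. Erbb2, the partner receptor, was at 18.9 and 18.7 CPM in epithelium of PCSp mice and at 19.4 and 19.5 CPM in that of PSp mice, and was lower in fibroblasts (8.76 to 11.4 CPM). Sub-cluster 9 had the least Erbb2 of the 7 in every mouse, at 9.45 and 9.20 CPM in PCSp mice and 12.3 and 11.2 CPM in PSp mice. Erbb3 was at 320 and 339 CPM in glial cells of PCSp mice and at 383 and 222 CPM in those of PSp mice, from only 85 cells in all, and Erbb3 is known in Schwann cells as the receptor of axonal neuregulin. Those cells also held Btc at 42.4 to 87.1 CPM, from only 1 to 5 UMIs per mouse. Epithelial Erbb3 was at 36.5 and 36.6 CPM in PCSp mice and 37.9 and 37.3 CPM in PSp mice, with sub-cluster 11 (61.0 to 69.1 CPM) above and sub-cluster 9 (10.4 to 15.7 CPM) below the rest of the 7. Of 11441 epithelial-like cells thinned to 1000 UMIs, 36 had both an Areg and an Egfr UMI, 16 had both an Nrg1 and an Egfr UMI, and 1 had both an Nrg1 and an Erbb3 UMI. These are 0.315%, 0.140% and 0.00874% of the cells, beside products of the single shares of 0.383%, 0.0616% and 0.0385%. The pooled products mix sub-clusters of unlike levels. Of the 16 cells with Nrg1 and Egfr, 15 were in sub-cluster 9, 0.804% of its cells beside a product of 0.653%. Together, Areg and Egfr were above their product in sub-clusters 0, 3, 4, 5, 6 and 11, from 2 to 8 cells each. They were below it in sub-cluster 9 (0.161% beside 0.340%). In sub-clusters 7, 10 and 12 no cell had both, beside products of 0.0749%, 0.0278% and 0.270% of 310, 360 and 298 cells. Each of these products is less than 1 cell, so no order is read from them.

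**Figure D2:**
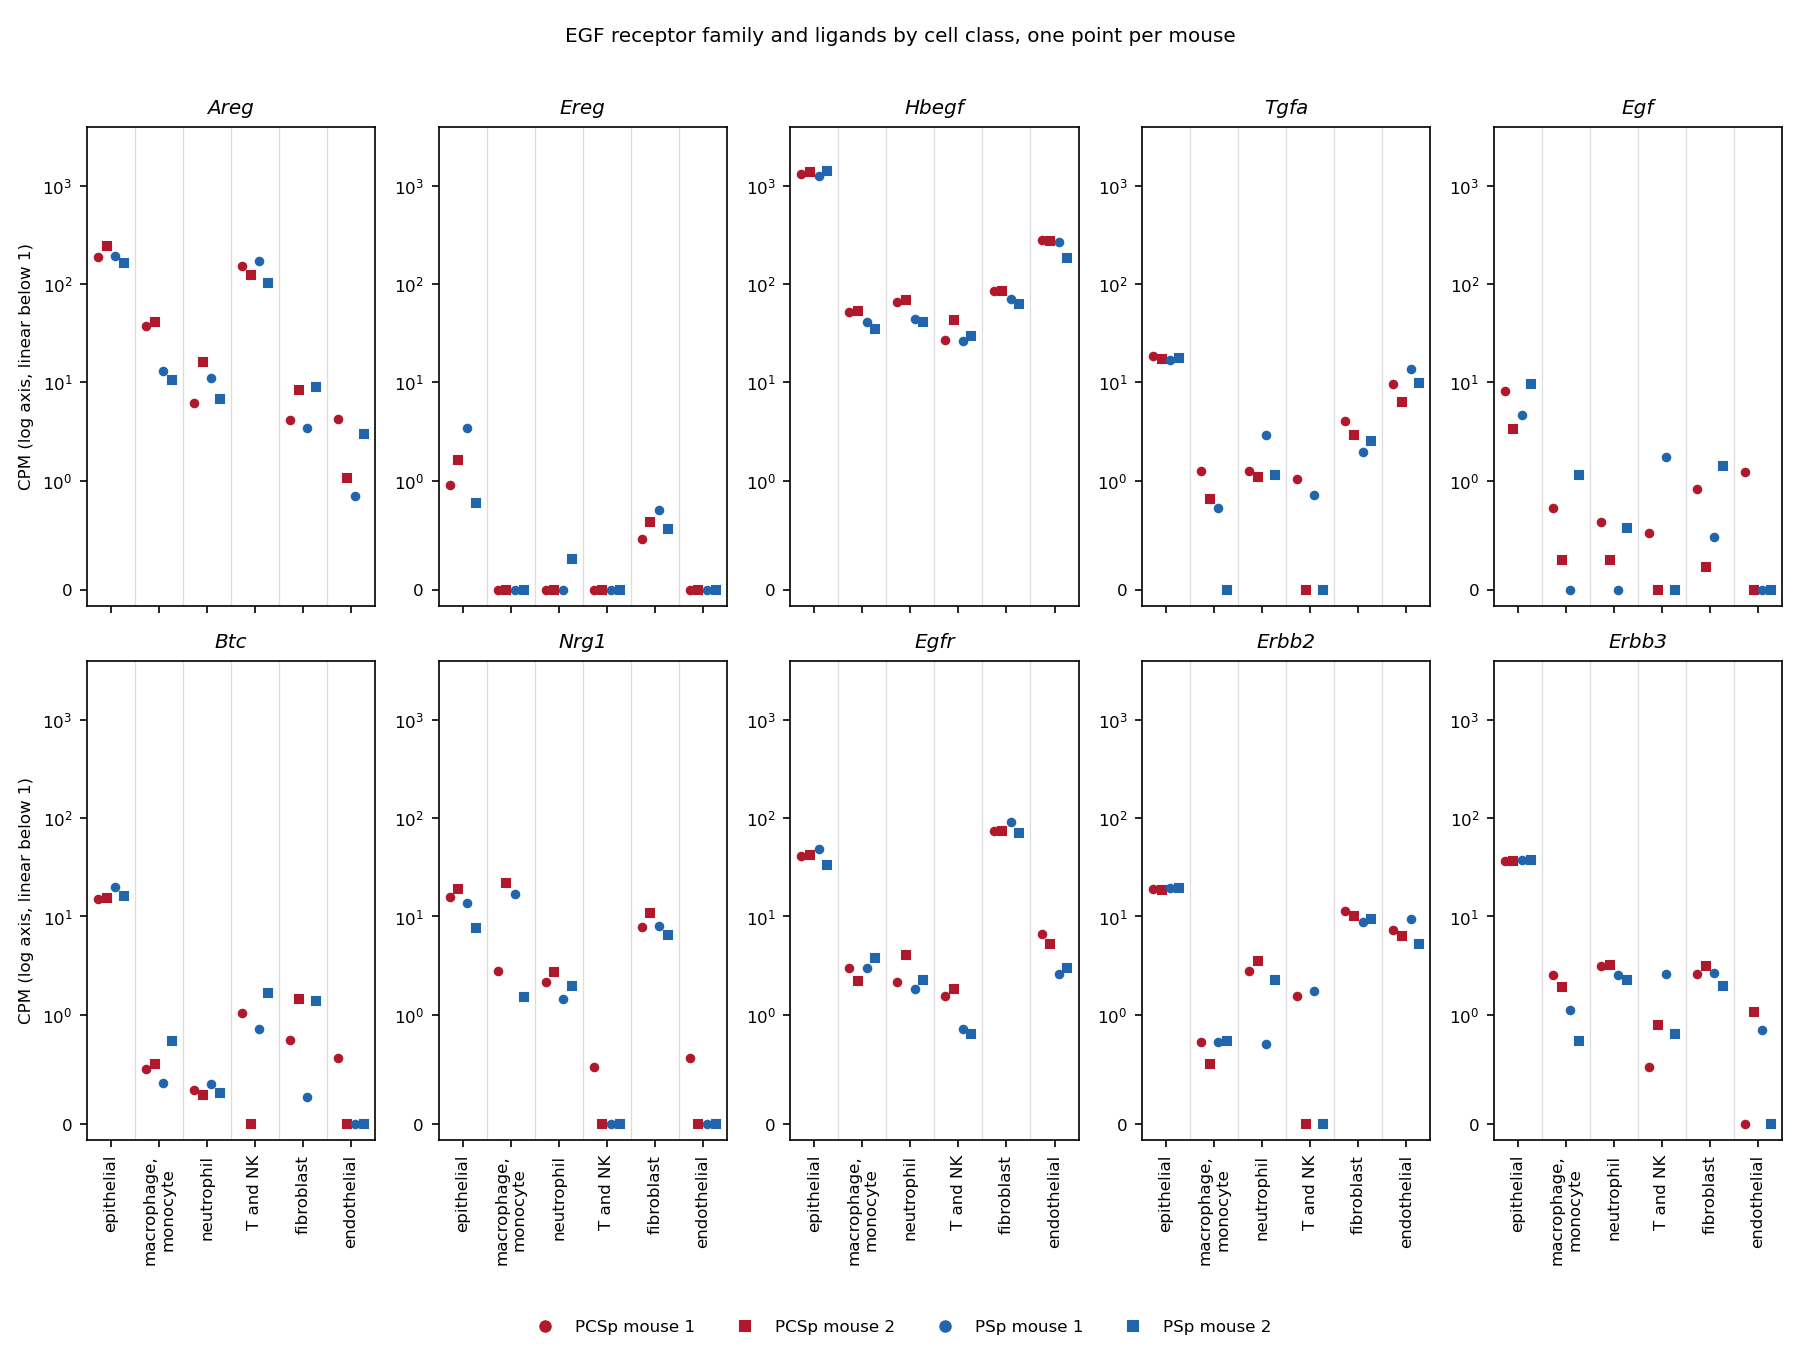
Level of each member in 6 cell classes, in CPM on a log axis that is linear below 1, with 1 point per mouse (PCSp mice red, PSp mice blue). Hbegf is highest in epithelial-like cells and Egfr in fibroblasts, Areg is shared by epithelial-like and T and NK cells, and Areg in macrophages and monocytes is higher in both PCSp mice than in both PSp mice.

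The design compares tumours that carry floxed Chd1 with tumours that do not. The filter on low counts kept all 10 members in the epithelium, in basal-like and in luminal progenitor-like cells, 8 in luminal-like cells, 7 in fibroblasts, 3 each in neutrophils and in macrophages and monocytes, and 2 each in endothelial cells and in T and NK cells. In the epithelium none of the 10 members passed an adjusted p of 0.05 by edgeR's quasi-likelihood test, and none had an unadjusted p under 0.05. DESeq2 called none of the members either. Of the 16450 genes that edgeR tested in this class it called 0 (0%), so by edgeR the members' count of 0 is that of the whole class. DESeq2 called 181 genes in the class, few beside the 16450 that edgeR tested there. A count of 0 of 10 members thus does not set the members apart from the class by DESeq2. Both PCSp mice lay on the same side of both PSp mice for 4 members (higher for Nrg1, and lower for Btc, Erbb2 and Erbb3), and this was so for 39.3% of all tested genes. With 2 mice per genotype, an exact two-sided permutation test of a single value cannot give a p below 0.333.

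The log2 fold change of Nrg1, PCSp over PSp, was 0.68 ± 0.28 (SE, adjusted p = 0.664, edgeR), from 15.7 and 19.2 CPM in PCSp mice against 13.8 and 7.72 CPM in PSp mice. That of Ereg was -0.73 ± 0.71 (adjusted p = 0.823) and was 0.65 without PSp mouse 1. That of Egf was -0.35 ± 0.53 (adjusted p = 0.897), with values of -1.10 to 0.33 when each mouse was left out. Areg differed by 0.27 ± 0.15 (adjusted p = 0.712) and Btc by -0.26 ± 0.12 (adjusted p = 0.682). The remaining 5 members had fold changes near 0. The log2 fold change was 0.01 ± 0.10 for Hbegf, 0.03 ± 0.09 for Tgfa, 0.01 ± 0.18 for Egfr, -0.07 ± 0.08 for Erbb2 and -0.06 ± 0.07 for Erbb3, with adjusted p-values of 0.846 to 0.995.

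Summed by epithelial subclass, Nrg1 was 42.9 and 44.6 CPM in basal-like cells of PCSp mice, against 28.1 and 22.9 CPM in those of PSp mice. Both PCSp mice were above both PSp mice. Its log2 fold change was 0.75 ± 0.11 (SE), and the adjusted p of 0.0946 by edgeR missed 0.05, whereas DESeq2 gave an adjusted p of 0.000959. In this subclass edgeR called 3 of 13901 genes (0.0216%), 15% of genes had an unadjusted p under 0.05, and the mice of the genotypes did not overlap for 47.7% of genes. The share of sub-cluster 9, where Nrg1 is highest, moved the same way, at 18.2% and 15.9% of epithelial-like cells in PCSp mice and 13.6% and 10.4% in PSp mice, and within sub-cluster 9 the Nrg1 levels of the genotypes overlapped. Btc in basal-like cells went the other way, with 7.46 and 9.79 CPM in PCSp mice, against 14.7 and 11.04 CPM in PSp mice. Its log2 fold change was -0.60 ± 0.19 (SE, adjusted p = 0.257, edgeR). Both PCSp mice were lower here as well, and Btc was also below both PSp mice within sub-cluster 4, at 17.4 and 16.1 CPM in PCSp mice and 22.2 and 18.1 CPM in PSp mice, a smaller difference than in the whole subclass. Sub-cluster 9, the larger share in PCSp mice, is also where Btc is lowest. The part of this shift in the subclass values of Nrg1 and Btc was not tested.

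In luminal-like cells, Hbegf was at 889 and 851 CPM in PCSp mice, against 1148 and 1281 CPM in PSp mice. Both PCSp mice were lower. Its log2 fold change of -0.48 ± 0.14 (SE) had an adjusted p of 0.330 by edgeR, in a subclass in which 40 of 10263 genes (0.39%) were called and 7.53% had an unadjusted p under 0.05. In these cells 4 of the 8 members tested did not overlap between the genotypes, and neither did 38.4% of all genes. Without PCSp mouse 2 the same fold change passed (adjusted p = 0.0315, edgeR). Areg in luminal-like cells rested on 39 and 13 UMIs in PCSp mice, at 8.40 and 11.1 CPM, against 6 and 189 UMIs in PSp mice, at 4.05 and 25.9 CPM, so the PCSp mice lay between the PSp mice. Its log2 fold change of -1.04 ± 0.52 (SE, adjusted p = 0.702, edgeR) was -1.54 without PSp mouse 1, where it passed (adjusted p = 3.61e-05), and 1.18 without PSp mouse 2. In luminal progenitor-like cells no member had an unadjusted p under 0.05, and edgeR called 0 of 13797 genes (0%). There 1 of the 10 members, Hbegf, did not overlap between the genotypes, against 39.8% of all genes.

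**Figure D3:**
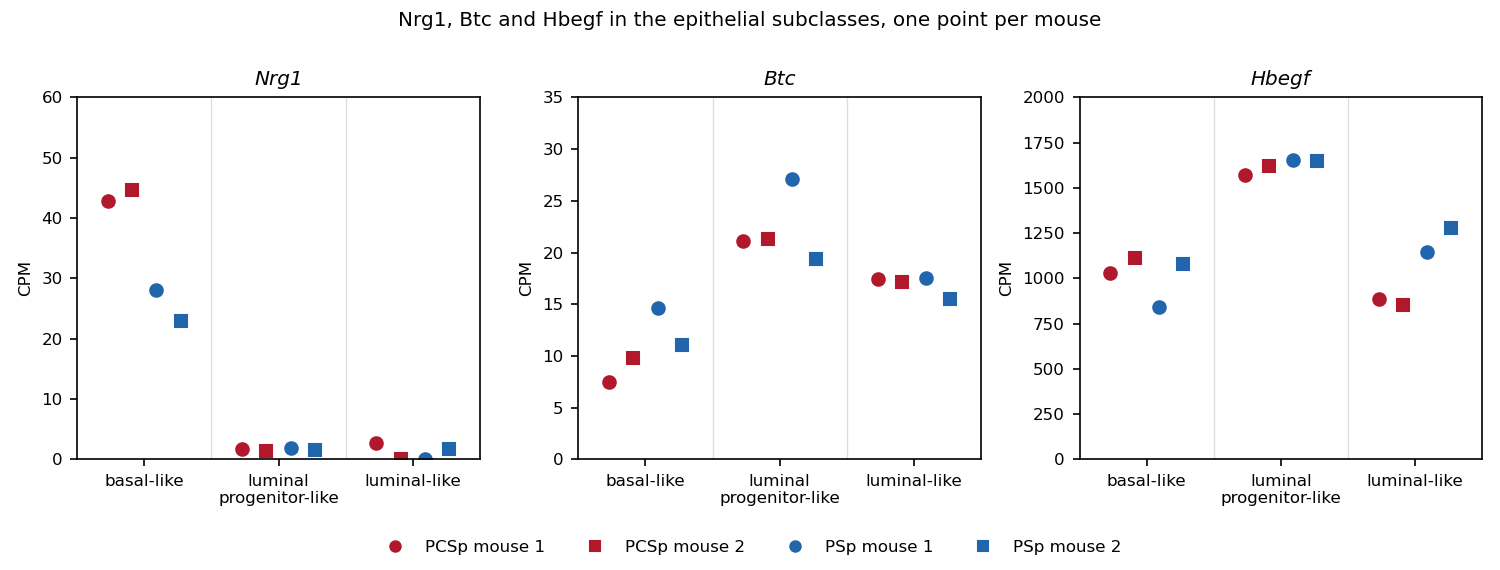
Level of Nrg1, Btc and Hbegf in CPM in basal-like, luminal progenitor-like and luminal-like epithelial cells, with 1 point per mouse (PCSp mice red, PSp mice blue). In basal-like cells Nrg1 is higher and Btc lower in both PCSp mice, and in luminal-like cells Hbegf is lower in both PCSp mice, and none of these differences passed the adjusted threshold by edgeR.

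Areg in macrophages and monocytes was the member that passed. It was at 37.7 and 41.0 CPM in PCSp mice, against 13.1 and 10.6 CPM in PSp mice, and both PCSp mice were far above both PSp mice. The log2 fold change was 1.68 ± 0.19 (SE, adjusted p = 0.0246, edgeR), and 8 of the 10016 genes tested in this class (0.0799%) were called and 6.59% had an unadjusted p under 0.05. The levels rested on 150 and 148 Areg UMIs in PCSp mice, against 35 and 28 in PSp mice. These UMIs sat in few cells, 31 and 42 of 674 and 711 cells in PCSp mice, against 18 and 17 of 368 and 419 cells in PSp mice. The share of cells with an Areg UMI was 4.60% and 5.91% in PCSp mice and 4.89% and 4.06% in PSp mice, and after thinning to 1000 UMIs it was 1.21% (95% interval 0.445 to 2.61) and 2.78% (1.56 to 4.54) in PCSp mice and 0.699% (0.0848 to 2.503) and 1.66% (0.540 to 3.82) in PSp mice. Thus the genotypes overlapped in how many cells had an Areg UMI, and what differed was the number of UMIs in the cells that had it. Barcodes with 5 or more Areg UMIs numbered 9 and 14 in PCSp mice, against 2 and 1 in PSp mice. The single richest barcode held 47 and 17 Areg UMIs in PCSp mice, against 6 and 5 in PSp mice.

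The call did not survive the removal of some barcodes, although the fold change was about as large. Without the richest barcode of each mouse, the log2 fold change was 1.61 ± 0.25 and the adjusted p 0.109. Without barcodes that held 5 or more UMIs of epithelial markers or 2 or more of T and NK markers, it was 1.77 ± 0.32 with an adjusted p of 0.219. The direction was the same, and the call was lost in both cases (edgeR). All 10 epithelial markers had UMIs in this class, with a summed level of 534 and 368 CPM in PCSp mice and 294 and 390 CPM in PSp mice, against 12058 to 14813 CPM in epithelial-like cells. From these, epithelial RNA could have left 7.67 and 6.73 CPM of Areg in PCSp mice and 5.13 and 4.32 CPM in PSp mice, and the measured levels were 4.91 and 6.09 times that in PCSp mice and 2.56 and 2.46 times that in PSp mice. T and NK markers summed to 43.0 and 36.5 CPM in PCSp mice and 40.2 and 44.0 CPM in PSp mice, with 8 or 9 of 10 detected in each mouse. Neutrophil markers moved with the genotype in this class, at 168 and 235 CPM in PCSp mice and 125 and 103 CPM in PSp mice (8 of 9 detected in each), while neutrophils themselves held Areg at 6.21 and 16.2 CPM in PCSp mice and 10.96 and 6.79 CPM in PSp mice. All 8 dendritic markers were detected, at 211 and 202 CPM in PCSp mice and 123 and 210 CPM in PSp mice, and 1 to 3 of 6 mast cell markers, at 1.502 to 11.4 CPM. The part of these cell types in the result was not tested. Of the Areg-rich barcodes, 8 of 9 and 13 of 14 in PCSp mice and 1 of 2 and 0 of 1 in PSp mice held at least 50 UMIs of macrophage markers. By the rule above, 3 of 9 and 6 of 14 of them in PCSp mice and 1 of 2 and 1 of 1 in PSp mice held epithelial or T and NK markers. At least 5 UMIs of dendritic markers were held by 2 of 9 and 0 of 14 in PCSp mice and 1 of 2 and 1 of 1 in PSp mice. A mast cell marker UMI was held by 1 of 9 and 0 of 14 in PCSp mice and 1 of 2 and 0 of 1 in PSp mice. The Areg-rich barcodes were deep, with a median of 12418 and 9826.5 UMIs in PCSp mice and 11087.5 and 7140 UMIs in PSp mice. The medians over the class were 2906.5 and 3405 UMIs in PCSp mice and 2703.5 and 2533 UMIs in PSp mice.

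The clusters of the class differed in level. Cluster 10, led by H2-Aa, Lyz2 and Ccl8, held Areg at 93.2 and 48.1 CPM in PCSp mice, against 29.1 and 27.2 CPM in PSp mice, and its log2 fold change alone was 1.26 ± 0.39 (SE, adjusted p = 1.00, edgeR). Cluster 15, led by the complement genes C1qa, C1qb and C1qc, held 9.39 and 42.8 CPM in PCSp mice, against 4.04 and 4.74 CPM in PSp mice, with a log2 fold change of 2.5 ± 0.74 (adjusted p = 0.305). Cluster 16, of the same genes at a median depth of 968 UMIs, held 16.9 and 24.4 CPM in PCSp mice and 16.3 and 13.3 CPM in PSp mice, from only 7 and 8 Areg UMIs in PCSp mice and 4 and 4 in PSp mice. Epithelial markers summed to 1528 and 1064 CPM in cluster 16 of PCSp mice and to 947 and 1054 CPM in that of PSp mice, above the level of the whole class, and their part in its Areg was not tested. In clusters 10 and 15 both PCSp mice were above both PSp mice, and PCSp mouse 1 was the higher in cluster 10 and PCSp mouse 2 in cluster 15. Cluster 10, the Areg-rich one, was also a larger share of the class in PCSp mice (25.7% and 33.3%) than in PSp mice (21.2% and 15.5%), and the part of this in the class value was not tested. The genotype effect on Areg differed between epithelial-like cells and macrophages and monocytes, by -1.41 ± 0.20 on the log2 scale (SE, epithelial minus macrophage, adjusted p = 0.0432, edgeR interaction test), a test that called 8 of 15678 genes (0.051%). The same test against the other classes called no member, and 0.393% of all genes for T and NK cells, 0.486% for endothelial cells, 0.0181% for fibroblasts and 0.0634% for neutrophils. Without PCSp mouse 1 this difference was -1.28 and missed the threshold (adjusted p = 0.0580, edgeR).

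**Figure D4:**
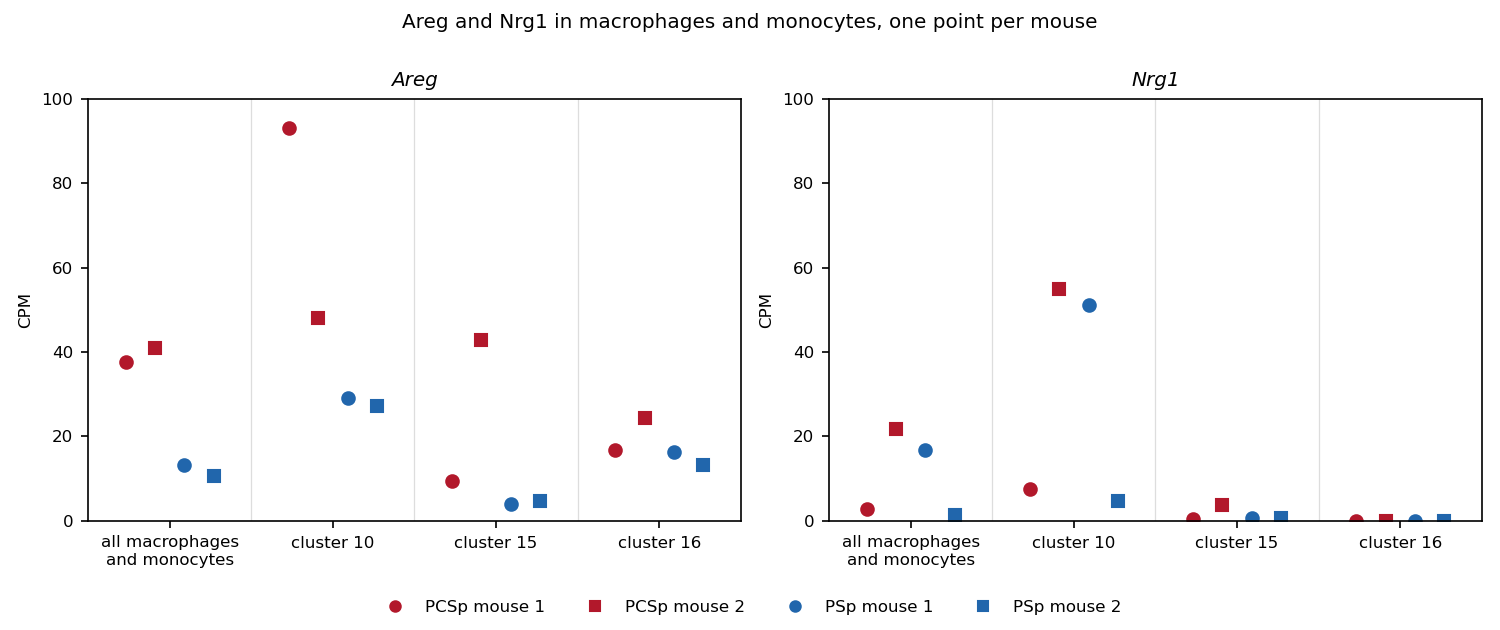
Areg and Nrg1 in macrophages and monocytes as a whole and in clusters 10, 15 and 16, in CPM, with 1 point per mouse (PCSp mice red, PSp mice blue). Areg is higher in both PCSp mice in the whole class, and Nrg1 is high in PCSp mouse 2 and PSp mouse 1, 1 mouse of each genotype.

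Nrg1 in the same cells followed the mouse and not the genotype. It was at 2.77 and 21.9 CPM in PCSp mice, against 16.9 and 1.52 CPM in PSp mice, and in cluster 10 at 7.64 and 54.9 CPM in PCSp mice, against 51.2 and 4.81 CPM in PSp mice. PCSp mouse 2 and PSp mouse 1 were high, with an Nrg1 UMI in 13.5% and 17.9% of cluster 10 cells, against 3.47% and 1.54% in PCSp mouse 1 and PSp mouse 2. The log2 fold change was 0.34 ± 0.93 (SE, adjusted p = 0.964, edgeR), with values of -1.75 to 2.90 when each mouse was left out. Hbegf in macrophages and monocytes was at 52.5 and 52.6 CPM in PCSp mice, against 41.3 and 35.3 CPM in PSp mice. These are 0.951 to 1.39 times what epithelial RNA could leave, and the log2 fold change was 0.41 ± 0.15 (adjusted p = 0.655).

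In the other classes no member was called by edgeR or DESeq2. Hbegf in neutrophils was at 66.1 and 69.3 CPM in PCSp mice, against 44.6 and 40.7 CPM in PSp mice, with a log2 fold change of 0.63 ± 0.16 (SE, adjusted p = 0.303, edgeR, 8 of 9134 genes or 0.0876% called, and 8.73% under an unadjusted p of 0.05), at levels below what epithelial RNA could leave. Without PCSp mouse 1 it was 0.69 and passed (adjusted p = 0.0271, edgeR). Hbegf in fibroblasts was at 85.1 and 85.9 CPM in PCSp mice, against 70.3 and 62.3 CPM in PSp mice, 1.90 to 2.83 times the epithelial amount. Its log2 fold change was 0.34 ± 0.14 (adjusted p = 0.999), with 0 of 12118 genes (0%) called in fibroblasts. Of the 7 members tested there, Hbegf alone had an unadjusted p under 0.05, as did 3.79% of all genes, and 3 did not overlap between the genotypes, against 32% of all genes. Both PCSp mice were above both PSp mice in each of these classes. Egfr in fibroblasts overlapped between the genotypes, with a log2 fold change of -0.15 ± 0.15 (adjusted p = 0.999). Hbegf in endothelial cells differed by 0.29 ± 0.18 (adjusted p = 0.861), with 0 of 9162 genes (0%) called and no member under an unadjusted p of 0.05, against 6.47% of all genes. It was higher in cluster 0, led by Fabp4 and Aqp1 (323 and 314 CPM in PCSp mice, 271 and 204 CPM in PSp mice), than in cluster 14, led by Ccl21a and Lyve1 (125 and 79.4 CPM in PCSp mice, 57.1 and 43.5 CPM in PSp mice). Areg in T and NK cells differed by 0.01 ± 0.18 (adjusted p = 0.998), with 37 of 7829 genes (0.473%) called. Neither member tested there had an unadjusted p under 0.05 or set the genotypes apart, against 8.35% and 38.2% of all genes.

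The Areg of lymphocytes came mostly from 1 cluster. Cluster 12, led by Cd3g, Icos and Il7r, held 418 and 355 CPM in PCSp mice, against 496 and 266 CPM in PSp mice. Cluster 11, led by the cytotoxic genes Ccl5, Nkg7 and Gzmb, held 46.9 and 36.3 CPM in PCSp mice, against 39.1 and 22.0 CPM in PSp mice. In cluster 12, 90 cells had an Areg UMI and 292 did not, with median depths of 3679 and 3965.5 UMIs. Il1rl1, the IL-33 receptor gene, had a UMI in 44.4% of the cells with Areg and in 4.79% of those without. Gata3, a transcription factor of type 2 lymphocytes, was seen in 56.7% with and 23.3% without, and Foxp3, the factor of regulatory T cells, in 31.1% with and 5.82% without. Trdc, of gamma delta T cells, was seen in 2.22% with and 16.1% without. Icos (75.6% with, 79.8% without) and Il7r (75.6% with, 86.3% without) were frequent in both. The order of Il1rl1 was the same in every mouse, with 16 of 32 and 8 of 26 cells with Areg in PCSp mice and 10 of 20 and 6 of 12 in PSp mice, against 2 of 105 and 1 of 65 cells without Areg in PCSp mice and 9 of 53 and 2 of 69 in PSp mice. These genes were chosen after their values were seen, and the shares are a description without a test.

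**Figure D5:**
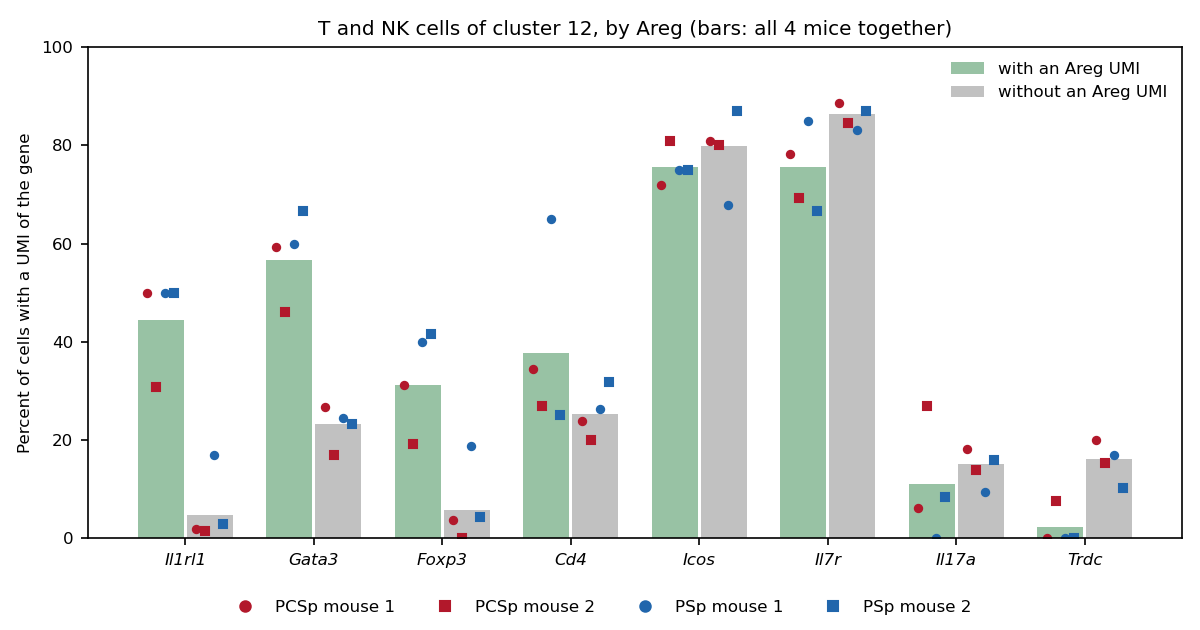
Percent of cluster 12 T and NK cells with a UMI of 8 genes, for cells with (green) and without (grey) an Areg UMI, with bars over all 4 mice and 1 point per mouse (PCSp mice red, PSp mice blue). Il1rl1, Gata3 and Foxp3 are more frequent, and Trdc less frequent, in cells with an Areg UMI in each mouse.

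The other genes of the pathway were read from 4 lists, and none of their genes was called in any class by edgeR. Per class or subclass, 0 to 10 of the 44 listed genes had an unadjusted p under 0.05 by edgeR. The 0 was in fibroblasts, where 3.79% of all tested genes were under it, and the 10 in basal-like cells, where 15% were. Not all of the 44 were kept by the filter on low counts in each class. DESeq2 called 2 listed genes in basal-like cells (Errfi1 and Fosl1), 2 in luminal progenitor-like cells (Dusp6 and Myc) and 0 in each other class or subclass, where 0 to 2 had an unadjusted p under 0.05 by DESeq2. Over all genes DESeq2 called 241 of 21706 in basal-like cells and 138 of 21397 in luminal progenitor-like cells. In the epithelium, all 4 tested of the other family genes were higher in PCSp mice (median log2 fold change 0.37). Among them were Epgn, at 4.69 and 4.49 CPM in PCSp mice and 4.35 and 2.24 CPM in PSp mice (0.47 ± 0.32 SE), and Nrg4 (0.27 ± 0.18). In basal-like cells the 3 tested genes of this list were all higher, and in luminal progenitor-like cells 2 were higher and 1 lower. In cluster 13, the epithelial cluster with the most Nrg1, Nrg2 was at 20.1 and 20.7 CPM in PCSp mice, against 24.3 and 24.0 CPM in PSp mice. Epgn there was at 16.9 and 18.7 CPM in PCSp mice, against 14.5 and 5.80 CPM in PSp mice. The part of cluster sizes in the epithelial values was not tested. Over the whole epithelium, 3 of the 6 shedding and trafficking genes were higher and 3 lower (median 0.00). Cnih1 was at -0.21 ± 0.07 and Rhbdf2, which carries Adam17 to the surface, at -0.28 ± 0.11. Of the 16 genes for adaptors, transducers and receptor turnover, 12 were higher and 4 lower (median 0.08), with Lrig1, a negative regulator of the receptors, at 0.48 ± 0.21 and Cbl, which ubiquitinates them, at -0.16 ± 0.07. Of the 17 genes of ERK feedback and immediate response, 5 were higher and 12 lower (median -0.12). Over all genes tested in the class the median was -0.01, and 7.7% of genes had an unadjusted p under 0.05. Of the listed genes, Cnih1 and Dusp6 did. Dusp6, the phosphatase that is induced by and acts on ERK, was at 110.4 and 95.6 CPM in PCSp mice and 136.4 and 113.9 CPM in PSp mice, with a log2 fold change of -0.30 ± 0.11, and Dusp4, a related phosphatase, was at 0.21 ± 0.09. The adjusted p-values of the genes named from the lists were 0.619 to 0.745.

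In luminal progenitor-like cells, 14 of the 15 tested genes of the ERK list were lower in PCSp mice and 1, Dusp4, was higher, with a median of -0.21 against -0.01 over all genes of the subclass. Of these, 4 lower genes and Dusp4 had an unadjusted p under 0.05, against 8.9% of all genes. Dusp6 was at 63.7 and 59.4 CPM in PCSp mice, against 95.7 and 96.8 CPM in PSp mice, with a log2 fold change of -0.67 ± 0.08 (SE, adjusted p = 0.174, edgeR). Myc was at 33.3 and 23.7 CPM in PCSp mice, against 46.2 and 43.8 CPM in PSp mice, with a log2 fold change of -0.67 ± 0.16 (adjusted p = 0.364). Both PCSp mice were below both PSp mice for each of them, neither passed the threshold by edgeR, and these 2 genes in this subclass were chosen after their values were seen. In basal-like cells the same list had 9 higher and 8 lower genes (median 0.01). Fosl1, a transcription factor gene induced by ERK, was at 112.0 and 109.4 CPM in PCSp mice, against 72.7 and 74.4 CPM in PSp mice, with a log2 fold change of 0.57 ± 0.08 (SE, adjusted p = 0.0746, edgeR). Errfi1, a feedback inhibitor of Egfr, was at 580 and 527 CPM in PCSp mice, against 375 and 417 CPM in PSp mice, with a log2 fold change of 0.46 ± 0.09 (adjusted p = 0.141). For each gene both PCSp mice were above both PSp mice.

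The genes whose level was most like that of each member were ranked by Pearson's r of log2(CPM + 1) over 24 sums, 6 classes in 4 mice, among 9127 genes. The sums of 1 mouse share a library and the 4 sums of 1 class share a cell type, so r describes mainly the order of classes. Hbegf was followed most closely by Chmp2b (0.98), Gprc5a (0.96) and Slc12a2 (0.96), and Egfr by Tmem45a (0.98), Slc4a4 (0.97) and Hoxd11 (0.97). Tgfa had Ccdc3 (0.96), Cmbl (0.94) and Hspb1 (0.94). Erbb2 had Tbx3, Ccn1 and Arhgap32 (0.96 each), and Erbb3 had Rad51b (0.96), Cxcl5 (0.95) and Tm4sf4 (0.95). Btc had Atp1b1 (0.95), Cobl (0.94) and Lrrc26 (0.94), and Egf had Irx2, Cobl and Atp1b1 (0.90 each). Areg, present in both epithelium and lymphocytes, had Sec11c (0.92), Cyp51 (0.91) and Padi2 (0.90). Ereg had Sbsn (0.89), Anxa1 (0.89) and Kctd1 (0.88), and Nrg1 had Arhgef10l (0.89), Cxcl13 (0.88) and Ptgr1 (0.87), and these were the members with the loosest matches.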

How the data were processed

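Single-cell count matrices of 4 mouse prostate tumours, deposited by the authors, were used. Per the labels, the libraries were 10x Genomics 3' v3, and per the submitters' processing notes reads were processed with Cell Ranger 6.1.2 on mm10. The deposited values are raw UMI counts per gene and barcode. Barcodes with at least 500 UMIs, 300 genes and at most 20% mitochondrial UMIs were kept, 11.3% to 16.2% being over the last limit. Doublets were removed with Scrublet scores at an expected rate of 0.8% per 1000 cells, since its automatic threshold marked 0% to 0.775% of barcodes. Cells were clustered with scanpy 1.11.5 (2000 variable genes, 30 components, 15 neighbours, Leiden resolution 1), and clusters were named where at least 3 markers of a type were raised. Counts were summed per mouse and class, and classes with at least 50 cells in every mouse were tested with edgeR 4.0.16 (quasi-likelihood, TMM, filterByExpr, Benjamini-Hochberg over all genes, threshold 0.05), with DESeq2 1.42.0 as an alternative. B and plasma cells (192), smooth muscle and pericytes (220), glial cells (85) and 256 unnamed cells were not tested. Overlapping genes were not separated. The fits were tested on simulated data. The members and lists were chosen with earlier results of these data known. Genes named are all members, from the lists the 2 of smallest p per list in epithelium and any called, and the 3 most alike genes per member. Some genes, and an allele that both groups share, are not reported here.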

Additional observations from a re-analysis of the deposited data

Results flagged for a closer look

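The genotype effect on Areg differed between cell classes by a test of the difference itself. The log2 fold change of PCSp over PSp mice was 0.27 ± 0.15 in epithelial-like cells and 1.68 ± 0.19 in macrophages and monocytes (SE, n = 2 mice per genotype), and the difference, epithelial minus macrophage, was -1.41 ± 0.20 (adjusted p = 0.0432, edgeR interaction test). Macrophages and monocytes were higher in both PCSp mice, whereas the epithelial levels of the genotypes overlapped. The adjusted p was 0.0525 with other size factors and 0.0591 without macrophage barcodes that held epithelial or T cell markers.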

How the results depend on the processing

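The log2 fold changes of 22 combinations of member and class were recomputed under each alternative. Areg in macrophages and monocytes kept its direction throughout, and its call with all barcodes and clusters under every other setting and with each mouse left out (1.54 to 1.83, adjusted p = 0.000117 to 0.0338, edgeR and DESeq2). The alternatives that left out barcodes or took clusters 10, 15 and 16 alone were chosen after seeing the data. The number of members called in macrophages and monocytes was 1, and was 0 without marker-bearing barcodes and without the richest barcode. In basal-like cells it was 0, and 1 with DESeq2 (Nrg1), 2 with no filter on low counts (Nrg1 and Btc) and 1 at Leiden resolution 2 (Nrg1). In luminal-like cells it was 0, and 1 with no filter (Areg) and 0 to 1 when each mouse was left out. In neutrophils it was 0, and 0 to 1 when each mouse was left out. The difference of the Areg effect between epithelium and macrophages was -1.40 with RLE size factors (adjusted p = 0.0525), -1.48 without marker-bearing barcodes (adjusted p = 0.0591) and -1.61 to -1.28 when each mouse was left out. Leaving out a mouse leaves 1 in its group, which is assumed to vary like the rest.

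Small fold changes turned sign. Areg in T and NK cells was -0.00952 with DESeq2, -0.0264 with the stricter cell filter and -0.29 to 0.39 when each mouse was left out. With equal cells per sub-cluster, epithelial Egfr was -0.0913 and Tgfa -0.0635, and with no filter epithelial Hbegf was -0.000516. Nrg1 in macrophage cluster 10 alone was -0.00177. When each mouse was left out, the epithelial values were -1.10 to 0.33 for Egf, -0.22 to 0.29 for Egfr, -1.44 to 0.65 for Ereg, -0.0945 to 0.11 for Hbegf and -0.0205 to 0.0851 for Tgfa, and the others were -0.31 to 0.0191 for Egfr in fibroblasts, -1.75 to 2.90 for Nrg1 in macrophages and monocytes and -1.54 to 1.18 for Areg in luminal-like cells. The cause of these changes was not tested.

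The number of all genes called moved more. DESeq2 called 181 genes in epithelium, 241 in basal-like and 138 in luminal progenitor-like cells, where edgeR called 0, 3 and 0. With no filter on low counts edgeR called 40, 871 and 628. In macrophages and monocytes, 8 genes were called by edgeR, 24 by DESeq2 and 54 with no filter. Over all alternatives the highest counts were 217 in luminal-like cells (40 in the reported fit), 146 in T and NK cells (37), 408 in neutrophils (8), 179 in endothelial cells (0) and 152 in fibroblasts (0). Levels taken as a mean over cells moved by more than the spread between mice in 33 of 162 cases, and shares of cells without thinning in 68 of 90. The stricter filter left a mouse with too few luminal-like cells to test, and Areg in cluster 16 alone was too sparse to test. No paired analysis was possible because the labels give no pairing of the mice.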
